A study of Mus musculus with 18 samples.

Results

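This report covers the accessible chromatin of 9 genes of coagulation and haemostasis (Vwf, F8, F3, Tfpi, Thbd, Procr, Plat, Entpd1 and Ptgis) in lung endothelial cells (ECs) of young and aged mice. The data were ATAC-seq peak lists, 1 for each of 18 mice. ATAC-seq uses the transposase Tn5 to tag open DNA, and a peak is a place where the tagged fragments pile up above the local background. Peaks of all lists were merged into regions, and a region was kept when at least 2 samples had a peak in it. A region belonged to a gene when its midpoint lay nearest to a transcription start site of that gene or inside its gene body. By this rule the 9 genes held 56 of 47338 consensus regions.

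The mice were FVB animals that carried Col1α1-GFP, a reporter that marks collagen-producing fibroblasts, in all groups. Young Sham (n = 5) and Young Bleo (n = 4) mice were 2 months old, and Aged Sham (n = 4) and Aged Bleo (n = 5) mice were 18 months old. Bleo mice had received a single intratracheal dose of bleomycin (1 U/kg), a drug that injures the lung and causes fibrosis, and Sham mice had received vehicle; lungs were taken on day 30. ECs were sorted as CD31+ cells after removal of CD45+ leukocytes, CD326+ epithelial cells and GFP+ cells, so the sample held all CD31+ vessel types of the lung. With bulk material, fewer cells of a type and less open chromatin per cell cannot be told apart.

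The endothelium keeps blood fluid and stops leaks by opposite sets of proteins. VWF, factor VIII and tissue factor (F3) favour platelet adhesion and clotting, whereas TFPI, thrombomodulin (Thbd) and the endothelial protein C receptor (Procr) restrain thrombin formation, tissue plasminogen activator (Plat) starts clot lysis, and CD39 (Entpd1) and prostacyclin synthase (Ptgis) keep platelets quiet. In the lung, VWF is best known as a protein of larger vessels, while thrombomodulin is present along much of the vascular bed.

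The lists differed in length between samples. They held 30073 to 38747 peaks in Young Sham, 33980 to 39420 in Young Bleo, 25793 to 32220 in Aged Sham and 21050 to 40883 in Aged Bleo. The members followed the same order. Of the 56 regions, 29 to 41 had a peak in the Young Sham samples, 32 to 42 in Young Bleo, 22 to 30 in Aged Sham and 14 to 41 in Aged Bleo. The lowest value came from Aged Bleo 4, which also had the shortest list. Mean shares of member regions with a peak were 64.3%, 67.0%, 45.1% and 51.8% in these groups, against 71.9%, 75.1%, 59.2% and 62.9% of all consensus regions. The samples were run on 3 lanes. All Aged Bleo samples were on lane 6 together with Aged Sham 4, all Young Sham samples were on lane 8 together with Young Bleo 4, and the other Aged Sham and Young Bleo samples shared lane 7. Thus for Young Sham against aged samples, lane and age cannot be told apart. The promoters of 7 of 10 endothelial markers had a peak in every sample, and Pecam1, Tek and Emcn had one in 17, 14 and 7. None of 6 leukocyte markers (Ptprc among them) had a promoter peak in any sample, whereas 1 of 7 epithelial markers (Foxj1) and 1 of 6 fibroblast and mural markers (Pdgfra) had one in all. Of 5 markers of megakaryocytes, the other main source of VWF, only Pf4 had a promoter peak, which was present in all 4 Young Bleo samples, in 1 Aged Sham and 1 Aged Bleo sample and in 0 of 5 Young Sham samples. Promoter peaks in all samples were found for 3 of 7 large vessel, 2 of 4 general capillary, 1 of 4 aerocyte, 1 of 3 lymphatic and 0 of 3 mesothelial markers. In the same group order, the general capillary markers Gpihbp1 and Aplnr had one in 4, 4, 1 and 2 and in 5, 4, 3 and 1 samples. For the aerocyte markers the counts were 5, 4, 2 and 4 for Ednrb, 3, 2, 3 and 3 for Apln and 0, 0, 2 and 0 for Car4. The part of these markers in the results was not tested.

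The member regions were mostly weak and outside promoters. A peak was present in all 18 samples at 11 of them (19.6%), against 36.8% of all consensus regions. Strength was expressed within each list as the percentage of the 17432 regions with a peak in all samples that had a lower fold enrichment, called relative strength here. The median relative strength was 2.15 for member regions and 5.48 for all regions, and 43 members (76.8%) lay under 10, against 59.3% of all. Promoters, taken as the 1000 bp before a start site and the 100 bp after it, held 9 of the 56 regions (16.1%), against 21.3% of all. Because a typical peak summit rested on a median of 29 fragments, open chromatin too weak to be called at this depth would be listed without a peak.

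Sequences of regions that the comparisons turn on are shown first. Each intronic or intergenic region is given by 200 bp around its strongest summit in the mouse reference (GRCm38/mm10, plus strand, from the RefSeq genome assembly, not the FVB strain). Capitals mark matches to 6 motif cores of factors active in ECs, searched on both strands: CAGGAAG for ETS factors such as ERG, TGANTCA for AP-1, GGGTGTGG for KLF, TGTTTAC for FOX, AGATAAG for GATA and CCATTGT for SOX factors. The cores did not share letters in any window shown here. The Vwf intron window is at chr6:125573311-125573510, the other Vwf window at chr6:125604513-125604712, the Procr windows at chr2:155742342-155742541 and chr2:155743032-155743231, and the Entpd1 windows at chr19:40722458-40722657 and chr19:40737128-40737327. They stand in the same order here.
Vwf +20.4 kb: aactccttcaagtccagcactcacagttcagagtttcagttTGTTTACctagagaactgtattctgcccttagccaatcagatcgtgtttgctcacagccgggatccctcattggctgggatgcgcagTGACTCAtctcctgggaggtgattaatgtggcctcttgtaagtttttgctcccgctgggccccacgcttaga
Vwf +51.7 kb: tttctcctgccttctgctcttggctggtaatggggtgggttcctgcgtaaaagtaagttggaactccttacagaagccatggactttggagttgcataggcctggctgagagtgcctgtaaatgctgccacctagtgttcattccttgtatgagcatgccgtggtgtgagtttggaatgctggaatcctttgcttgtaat
Procr -8.8 kb: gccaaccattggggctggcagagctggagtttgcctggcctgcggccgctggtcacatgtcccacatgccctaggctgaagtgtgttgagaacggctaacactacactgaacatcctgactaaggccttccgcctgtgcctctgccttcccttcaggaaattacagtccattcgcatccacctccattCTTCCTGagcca
Procr -8.0 kb: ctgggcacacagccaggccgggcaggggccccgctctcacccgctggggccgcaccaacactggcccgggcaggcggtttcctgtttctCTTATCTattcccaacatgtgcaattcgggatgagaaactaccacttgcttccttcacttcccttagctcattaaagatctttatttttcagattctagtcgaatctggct
Entpd1 +62.8 kb: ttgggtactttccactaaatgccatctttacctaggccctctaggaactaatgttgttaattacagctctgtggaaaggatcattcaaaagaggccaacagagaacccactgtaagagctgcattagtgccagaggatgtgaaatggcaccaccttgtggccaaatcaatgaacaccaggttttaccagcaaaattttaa
Entpd1 +77.5 kb: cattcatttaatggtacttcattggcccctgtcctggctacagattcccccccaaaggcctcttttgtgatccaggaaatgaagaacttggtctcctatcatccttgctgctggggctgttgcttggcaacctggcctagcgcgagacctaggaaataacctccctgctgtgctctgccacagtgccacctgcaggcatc

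The Vwf window 20.4 kb into the gene held a FOX core and an AP-1 core, the Procr window at -8.8 kb an ETS core and that at -8.0 kb a GATA core, and the other 3 windows held none of the 6. Around the strongest summit, the ETS core was found in 13 of the 56 member regions (23.2%) and in 9463 of the 47338 regions, and AP-1 in 4 members (7.14%) and 8.72% of all. The SOX core was found in 4 members (5.63% of all regions), GATA in 2 (3.37%), FOX in 1 (4.43%) and KLF in 1 (3.64%). A match describes letters only.

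For the promoters, RefSeq promoter sequence was used for F3, Tfpi and Procr, whose promoter peaks or nearby peaks differed in at least 1 comparison. The bases upstream of the start are printed 5′ to 3′ on the gene's own strand, with the same motifs in capitals: F3 at chr3:121723287-121723536 (plus strand), Tfpi at chr2:84476776-84477009 (minus strand) and Procr at chr2:155750967-155751216 (plus strand).
F3 upstream of the start: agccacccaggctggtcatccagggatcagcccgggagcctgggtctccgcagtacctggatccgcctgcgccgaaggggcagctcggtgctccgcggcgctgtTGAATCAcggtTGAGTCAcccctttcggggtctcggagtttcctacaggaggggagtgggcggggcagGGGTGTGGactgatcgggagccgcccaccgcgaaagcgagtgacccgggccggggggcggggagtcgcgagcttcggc
Tfpi upstream of the start: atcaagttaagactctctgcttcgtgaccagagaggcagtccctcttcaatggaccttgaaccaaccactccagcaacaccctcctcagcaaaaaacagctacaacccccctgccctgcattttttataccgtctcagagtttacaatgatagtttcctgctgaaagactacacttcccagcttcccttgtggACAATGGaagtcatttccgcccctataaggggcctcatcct
Procr upstream of the start: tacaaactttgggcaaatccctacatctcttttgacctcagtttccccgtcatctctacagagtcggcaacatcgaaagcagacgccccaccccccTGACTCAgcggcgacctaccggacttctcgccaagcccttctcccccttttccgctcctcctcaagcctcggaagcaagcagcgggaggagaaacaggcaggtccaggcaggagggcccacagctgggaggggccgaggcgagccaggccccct

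The F3 sequence held 2 AP-1 cores and a KLF core, the Tfpi sequence a SOX core and the Procr sequence an AP-1 core. Among 32851 RefSeq promoters in the table, AP-1 was found in 6.75%, KLF in 3.2% and SOX in 3.02%.

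**Figure D1:**
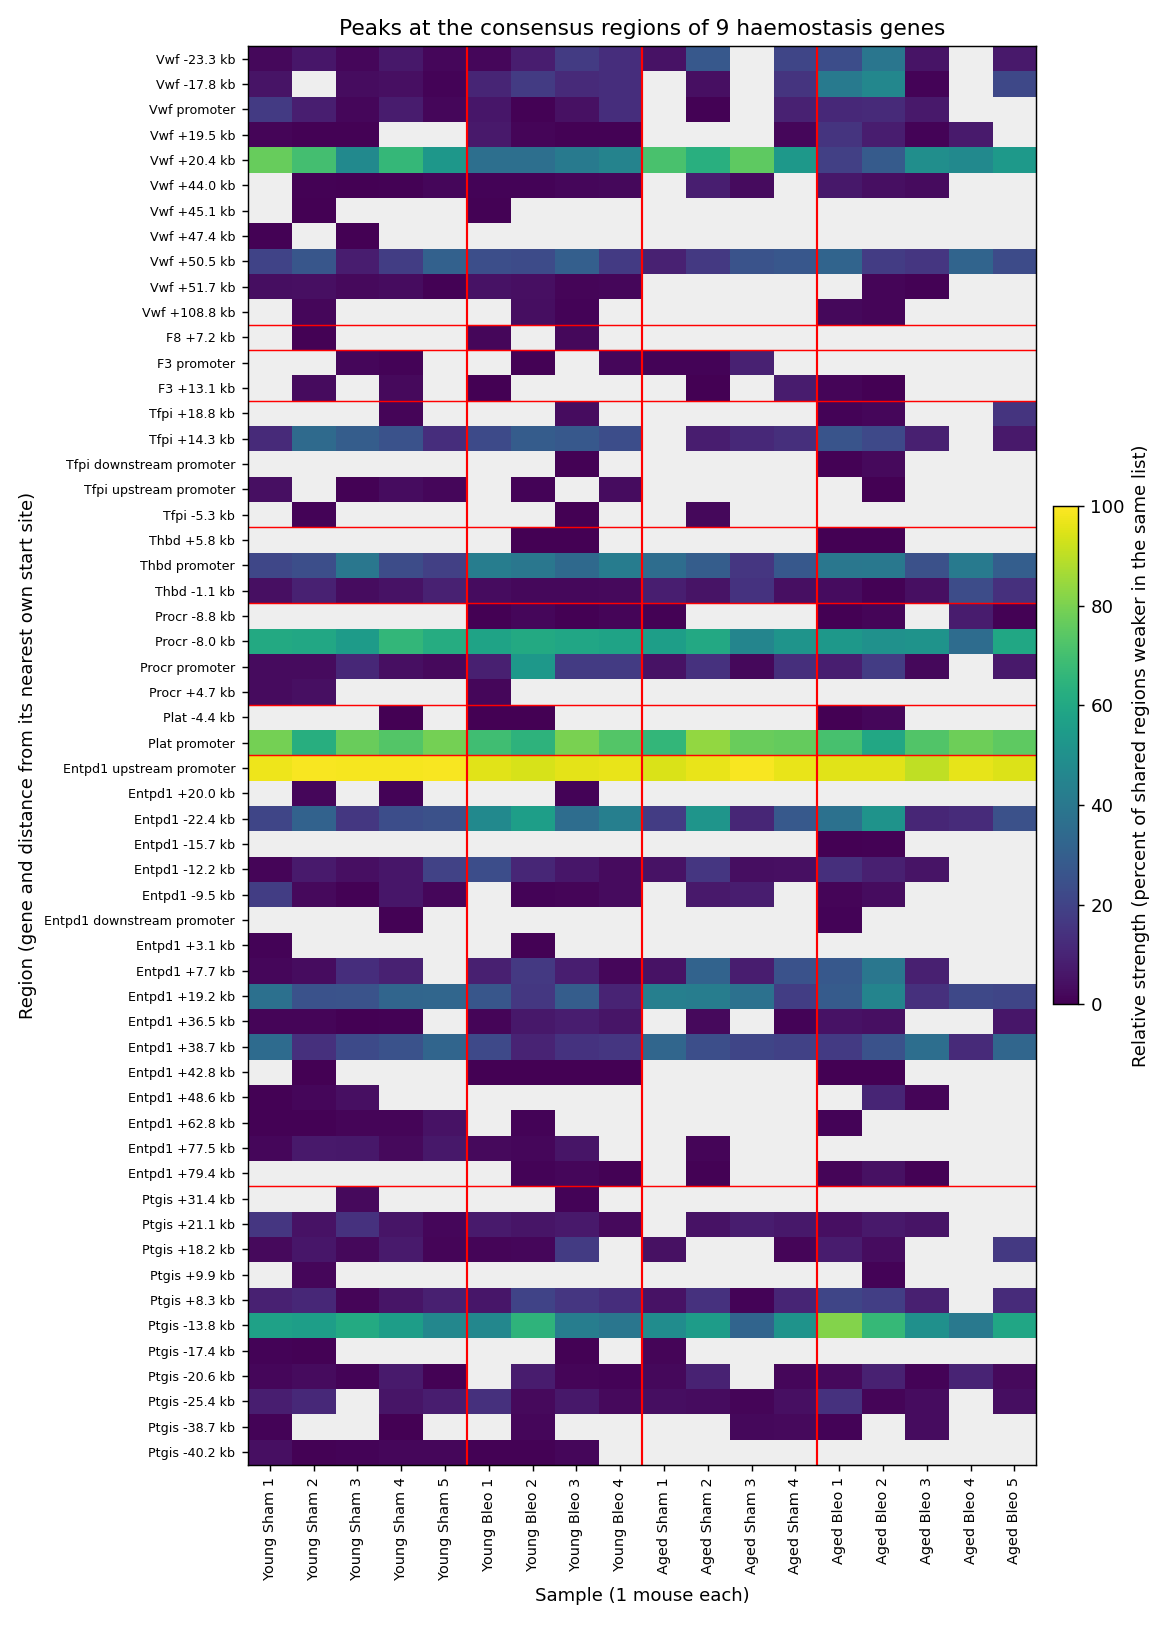
Peaks at the 56 consensus regions (rows, by gene and distance from the nearest start site of that gene) in 18 samples (columns, 1 mouse each, grouped by condition); colour gives relative strength in percent and grey means no peak. The Entpd1 upstream promoter and the Plat promoter are bright in every sample. Vwf +20.4 kb (18.9 to 76.7), Procr -8.0 kb (35.3 to 66.1) and Ptgis -13.8 kb (32.1 to 81.4) have a peak in every sample but vary in brightness. Most other rows are dark and grey in some.

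Vwf, which encodes the multimeric protein that captures platelets and carries factor VIII, spans chr6:125552948-125686679 (plus strand) and had 11 regions, 2 of them with a peak in all samples. The strongest by its median lay in an intron 20.4 kb downstream of the start site (chr6:125573129-125573636). Its relative strength was 76.7, 70.1, 47.5, 66.5 and 53.1 in Young Sham 1 to 5 and 36.7, 36.5, 41.4 and 44.9 in Young Bleo 1 to 4. It was 71.2, 63.0, 75.0 and 53.3 in Aged Sham 1 to 4 and 18.9, 28.9, 49.2, 47.6 and 53.6 in Aged Bleo 1 to 5. All Young Bleo samples lay below all Young Sham samples, and only Aged Bleo 5 reached above the lowest Aged Sham sample. The share of all regions with groups this separate was not counted. Group means were 62.8 ± 12.1 (SD, n = 5) in Young Sham, 39.9 ± 4.02 (n = 4) in Young Bleo, 65.6 ± 9.63 (n = 4) in Aged Sham and 39.6 ± 14.96 (n = 5) in Aged Bleo, with 28 to 101 fragments at the summit.

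Over all 9 Bleo against 9 Sham samples the Vwf intron region was lower by 24.4 percentile points (SE 5.10, limma adjusted p = 0.0123). It was the only one of the 11 testable member regions to pass, where 3.33% of all testable regions were called lower. Aged Bleo was also lower than Young Sham, by 23.1 points (SE 6.81, limma adjusted p = 0.0407, 1 of 11 members against 4.81% of all regions). No lane holds both of these groups, and with lane as a term this difference was -0.0191 (limma adjusted p = 1.0). Young Bleo v Young Sham gave a difference of -22.9 (limma adjusted p = 0.104) and Aged Bleo v Aged Sham one of -26.0 (limma adjusted p = 0.0991), neither past the threshold. The Bleo effect did not differ detectably between ages, with a difference of -3.09 points and a 95% interval of -24.7 to 18.5. Between aged and young samples the difference was 1.31 points with an interval of -9.50 to 12.1. Within lanes, Aged Bleo 1 to 5 (18.9 to 53.6) stood beside Aged Sham 4 at 53.3, Young Bleo 1 to 3 (36.5 to 41.4) beside Aged Sham 1 to 3 (63.0 to 75.0) and Young Bleo 4 at 44.9 beside Young Sham 1 to 5 (47.5 to 76.7). With lane as a term in the model the Bleo v Sham difference was -15.8 (SE 8.33, limma adjusted p = 0.658) and no region of the whole set passed.

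Among the remaining Vwf regions, medians over the samples with a peak were lower than at +20.4 kb. The intergenic region 17.8 kb upstream of the start (chr6:125534825-125535402) had a relative strength of 5.15, 3.16, 3.93 and 1.02 in Young Sham 1, 3, 4 and 5 and of 10.2, 17.4, 12.1 and 13.1 in Young Bleo 1 to 4. It was 4.12 and 15.01 in Aged Sham 2 and 4 and 40.8, 46.2, 0.889 and 21.7 in Aged Bleo 1, 2, 3 and 5, and the other 4 samples had no peak. In Aged Bleo 1 and 2, the samples lowest at +20.4 kb, this region was the strongest of the gene. The region 23.3 kb upstream (chr6:125529394-125529970) ranged from 1.65 to 6.36 in Young Sham, 1.90 to 17.3 in Young Bleo, 4.69 to 27.5 in 3 Aged Sham and 5.12 to 39.2 in 4 Aged Bleo samples, with overlap. Both upstream regions lacked a peak in some samples and were not tested for strength, and they were described after their values were seen. At the promoter (chr6:125552751-125553151) a peak was present in 5 of 5 Young Sham, 4 of 4 Young Bleo, 2 of 4 Aged Sham and 3 of 5 Aged Bleo samples, with relative strengths of 0.442 to 16.96 (Aged v Young, Fisher's exact p = 0.0824). A region in a coding exon 50.5 kb into the gene, also described after its values were seen, had a peak in every sample, between 8.14 and 32.2. An intronic region 51.7 kb downstream of the start (chr6:125604488-125604808) had a peak in 5 of 5 Young Sham and 4 of 4 Young Bleo samples, in none of 4 Aged Sham and in 2 of 5 Aged Bleo samples. Where present, this peak was weak, at 0.459 to 4.98. The Vwf gene as a whole had a median of 8 regions with a peak in Young Sham, 9 in Young Bleo, 4.5 in Aged Sham and 8 in Aged Bleo samples.

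F8, the gene of the clotting cofactor factor VIII (chrX:75172715-75380041, minus strand), had almost no accessible region. Its only region lay in an intron 7.2 kb downstream of a start site (chrX:75372717-75372977), with a peak in Young Sham 2, Young Bleo 1 and Young Bleo 3 at relative strengths of 0.7, 1.90 and 2.27. No aged sample had a peak there, and no consensus region lay at an F8 promoter.

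F3, which encodes tissue factor, the initiator of the clotting cascade, spans chr3:121723537-121735052 (plus strand) and had 2 weak regions. The promoter region (chr3:121723182-121723737), the one with AP-1 and KLF cores, had a peak in 2 of 5 Young Sham, 2 of 4 Young Bleo, 3 of 4 Aged Sham and none of 5 Aged Bleo samples. Relative strength there was 1.74 and 0.866 in Young Sham 3 and 4, 0.706 and 1.78 in Young Bleo 2 and 4, and 0.969, 0.809 and 9.36 in Aged Sham 1 to 3. It was the sole member region called in Aged Bleo v Aged Sham, a call kept under 2 of the 12 alternatives that kept the region, with fewer samples (Fisher's exact p = 0.0476, 1 of 56 against 0.41% of all regions; 0 members were called with more samples, against 0.475%). The 3 Aged Sham samples with this peak were all on lane 7, and Aged Sham 4, on the lane of the Aged Bleo samples, had none, so this difference cannot be told apart from lane. A region 13.1 kb downstream of the start had a peak in 7 samples, at 0.184 to 7.48.

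Tfpi encodes the inhibitor of the tissue factor and factor VIIa complex, and spans chr2:84432860-84476775 on the minus strand with 5 regions. By median its strongest region was intronic, 14.3 kb downstream of a start site (chr2:84459638-84460204). Relative strength was 11.99, 34.7, 29.5, 25.03 and 13.2 in Young Sham and 22.4, 28.9, 27.3 and 23.7 in Young Bleo samples. It was 8.03, 11.7 and 13.4 in Aged Sham 2 to 4, and 25.9, 22.1, 8.78 and 6.95 in Aged Bleo 1, 2, 3 and 5, while Aged Sham 1 and Aged Bleo 4 had no peak. The Aged Sham and Young Sham values thus overlapped only between 11.99 and 13.4, but the region was not testable for strength because 2 samples lacked the peak. Of 2 promoters, the upstream one (chr2:84476642-84476952) had a peak in 4 of 5 Young Sham, 2 of 4 Young Bleo, none of 4 Aged Sham and 1 of 5 Aged Bleo samples, at 0.298 to 4.03, and the downstream one in 3 samples, at 0.62 to 2.70.

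Thbd encodes thrombomodulin, which binds thrombin and turns it into an activator of protein C. This single-exon gene (chr2:148404471-148408188, minus strand) had 3 regions, 2 with a peak in all samples. At the promoter (chr2:148407695-148408525) relative strength was 21.5, 24.1, 39.8, 23.4 and 18.8 in Young Sham 1 to 5 and 42.2, 39.7, 34.2 and 42.1 in Young Bleo 1 to 4. It was 35.7, 29.7, 15.8 and 27.7 in Aged Sham 1 to 4 and 39.6, 40.1, 24.95, 40.7 and 29.9 in Aged Bleo 1 to 5. Young Sham and Young Bleo overlapped only through Young Sham 3, and the aged groups overlapped widely. The Bleo v Sham difference was 10.9 points (SE 3.32, 95% interval 3.89 to 18.0), which did not pass adjustment over all regions (limma adjusted p = 0.0616), and Young Bleo v Young Sham gave 14.01 points (limma adjusted p = 0.127). Without Young Sham 3 these values were 12.7 (limma adjusted p = 0.0247) and 17.6 (limma adjusted p = 0.0464), and without Aged Bleo 3 the first was 12.2 (limma adjusted p = 0.0393). With lane as a term they were 11.95 (limma adjusted p = 0.612) and 16.6 (limma adjusted p = 0.713), and on the percentile scale the Bleo v Sham difference passed under 3 of 22 alternatives. A second region 1.1 kb upstream was weaker than the promoter in all 18 samples, at 0.683 to 23.2.

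**Figure D2:**
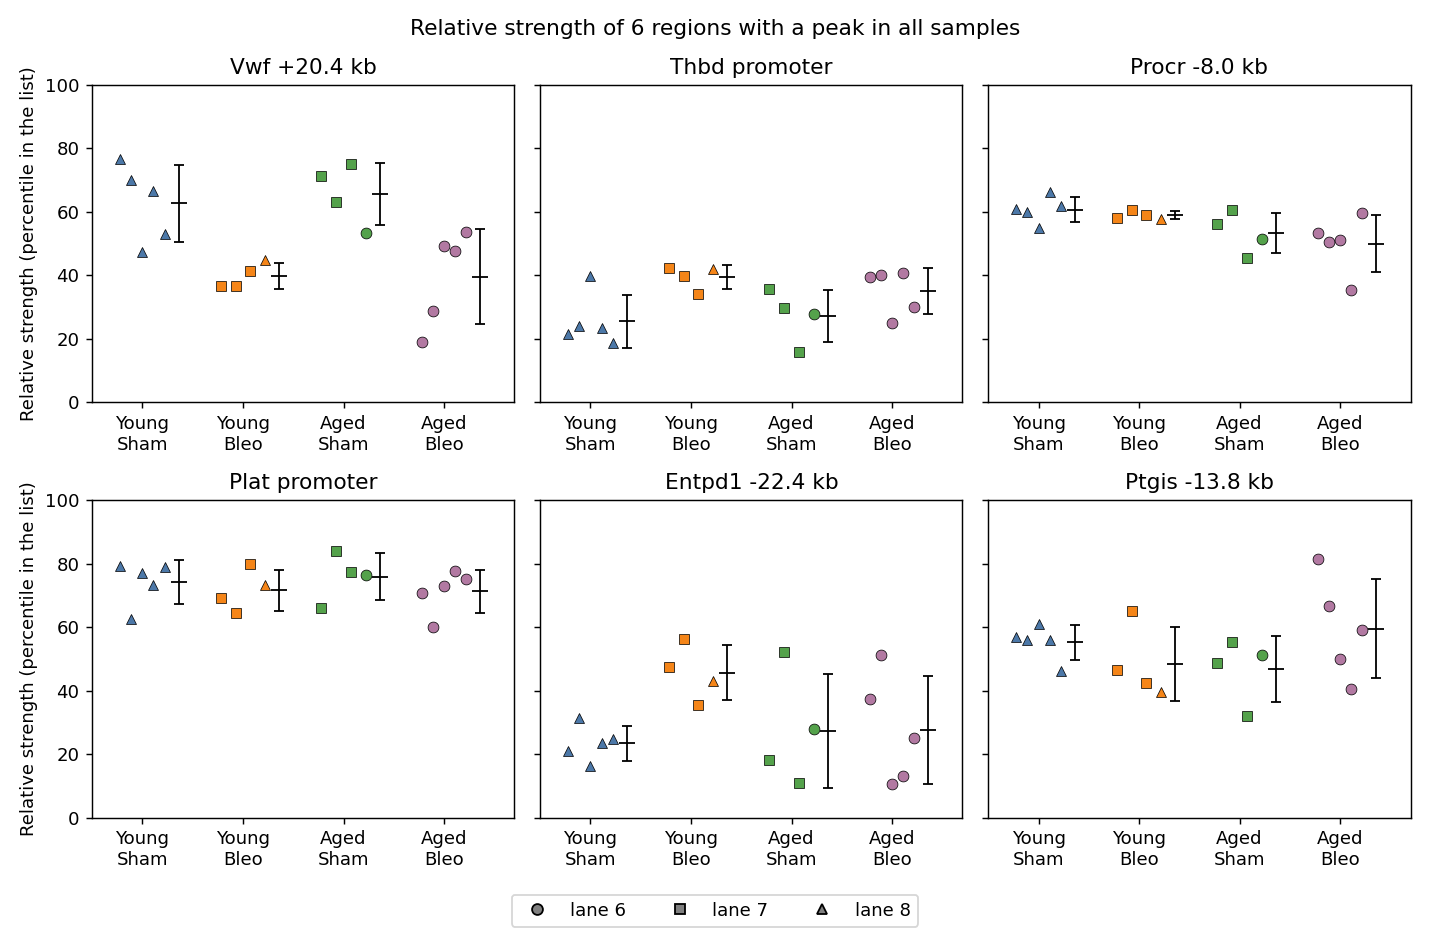
Relative strength (percentile in the list, vertical axes) of 6 member regions with a peak in all samples (for each gene the one that differed most between Young Bleo and Young Sham), by group; each point is 1 mouse, its shape gives the sequencing lane, and the bars give mean ± SD. At Vwf +20.4 kb the Young Bleo samples (36.5 to 44.9) sit below the Young Sham samples (47.5 to 76.7), whereas the Plat promoter lies between 60.0 and 83.9 in all groups.

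Procr encodes the endothelial receptor that presents protein C to thrombomodulin (chr2:155751217-155755478, plus strand), and it had 4 regions. An intergenic region 8.0 kb upstream of the start (chr2:155742821-155743515) was open in every sample. Its relative strength was 54.8 to 66.1 in Young Sham, 57.9 to 60.6 in Young Bleo, 45.5 to 60.5 in Aged Sham and 35.3 to 59.7 in Aged Bleo, with Aged Bleo 4 the lowest. The Aged v Young difference was -8.11 points (SE 2.83, 95% interval -14.1 to -2.12, limma adjusted p = 0.108), which did not pass the threshold.

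Less than 1 kb farther upstream, the region at -8.8 kb (chr2:155742243-155742650) had no peak in any of 5 Young Sham samples and a peak in 4 of 4 Young Bleo samples. A peak was present in 1 of 4 Aged Sham (Aged Sham 1) and 4 of 5 Aged Bleo samples, all but Aged Bleo 3. Relative strength, where present, was 0.258, 1.90, 0.063 and 1.37 in Young Bleo 1 to 4, 0.442 in Aged Sham 1, and 0.155, 1.54, 7.50 and 0.631 in Aged Bleo 1, 2, 4 and 5, on 14 to 31 fragments. All of these values except that of Aged Bleo 4 lay below the median of 5.48 over all regions. The Bleo v Sham comparison gave a Fisher's exact p of 0.00337, Young Bleo v Young Sham 0.00794, the smallest value that 4 against 5 samples allow, and Aged Bleo v Young Sham 0.0476. Within lanes, the peak was present in 4 of 5 Aged Bleo and 0 of 1 Aged Sham samples on lane 6, in 3 of 3 Young Bleo and 1 of 3 Aged Sham samples on lane 7, and in 1 of 1 Young Bleo and 0 of 5 Young Sham samples on lane 8. The Procr promoter (chr2:155750985-155751399) had a peak in 17 samples. Its relative strength was 2.51 to 11.3 in Young Sham and 8.65, 53.3, 17.3 and 17.2 in Young Bleo samples, against 2.07 to 14.3 in Aged Sham and 2.26 to 17.6 in the Aged Bleo samples with a peak. Young Bleo 2 stood far above all others, and Young Sham and Young Bleo overlapped only through Young Sham 3.

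Plat encodes tissue plasminogen activator, the endothelial enzyme that makes plasmin on fibrin (chr8:22757722-22782848, plus strand). Its promoter (chr8:22757254-22757911) was strongly open in every sample, at 62.6 to 79.2 in Young Sham, 64.5 to 79.8 in Young Bleo, 66.1 to 83.9 in Aged Sham and 60.0 to 77.8 in Aged Bleo. The ranges overlapped in all groups. The Bleo v Sham difference was -3.58 points with a 95% interval of -10.3 to 3.15, and the Aged v Young difference was 0.679 with an interval of -6.05 to 7.41. The other region, 4.4 kb upstream, had a peak in 5 samples at no more than 1.91.

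Entpd1 encodes CD39, which removes the platelet activators ATP and ADP. The gene has 2 start sites in the annotation used and spans 129.2 kb (chr19:40612366-40741602, plus strand). It had 17 regions, 4 with a peak in all samples. The strongest by median was the upstream promoter (chr19:40612007-40612584), which is shared with Tctn3 and therefore cannot be assigned to 1 of the genes. Relative strength there was 97.5 to 98.9 in Young Sham, 94.1 to 96.8 in Young Bleo, 94.3 to 99.2 in Aged Sham and 90.4 to 96.3 in Aged Bleo. The downstream promoter had a peak in Young Sham 4 and Aged Bleo 1 only, at 0.47 and 0.815. Outside promoters the highest median belonged to an intronic region 19.2 kb downstream of a start (chr19:40678445-40679450), at 9.87 to 45.0, with a Bleo v Sham difference of -9.66 (limma adjusted p = 0.199).

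Another Entpd1 intronic region, 22.4 kb upstream of the nearer start site (chr19:40637089-40637654), was chosen for description after its values were seen. It was 16.3 to 31.3 in Young Sham and 47.6, 56.2, 35.6 and 43.2 in Young Bleo samples. It was 10.7 to 52.1 in Aged Sham and 10.8 to 51.4 in Aged Bleo samples. The Young Bleo v Young Sham difference was 22.2 points (95% interval 4.47 to 40.0, limma adjusted p = 0.178), and that of Aged Bleo v Aged Sham 0.272 (interval -17.5 to 18.0). The difference between these was -22.0 (interval -47.1 to 3.17, limma adjusted p = 0.601).

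Farther along Entpd1, 4 weak regions differed in how many samples had a peak. The region at 62.8 kb from the start (chr19:40722402-40722720) had a peak in 5 of 5 Young Sham, 1 of 4 Young Bleo, 0 of 4 Aged Sham and 1 of 5 Aged Bleo samples, at 0.402 to 4.92. The region at 77.5 kb (chr19:40737093-40737460) had one in 5, 3, 1 and 0 samples of these groups, at 1.30 to 6.93. In the opposite direction, the region at 42.8 kb (chr19:40702381-40702693) had a peak in 1, 4, 0 and 2 samples, and that at 79.4 kb (chr19:40738977-40739289), whose midpoint lay in the 3′ UTR, in 0, 3, 1 and 3 samples. Regions of 1 gene were thus called in both directions between Young Bleo and Young Sham, and all 4 stayed under a relative strength of 7.

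Ptgis encodes prostacyclin synthase, which makes the vasodilator and platelet inhibitor prostacyclin (chr2:167203194-167240605, minus strand). It had 11 regions but none at its promoter. By median the strongest lay 13.8 kb upstream (chr2:167254145-167254654), with relative strengths of 46.3 to 61.0 in Young Sham, 39.5 to 65.2 in Young Bleo, 32.1 to 55.4 in Aged Sham and 40.5 to 81.4 in Aged Bleo, and these ranges overlapped. A region 40.2 kb upstream separated the ages almost fully. It had a peak in 5 of 5 Young Sham and 3 of 4 Young Bleo samples, and in none of 9 aged samples. Relative strength was 4.03, 0.7, 0.855, 1.80 and 1.65 in Young Sham 1 to 5 and 0.511, 0.706 and 1.72 in Young Bleo 1 to 3, on 11 to 16 fragments. On lane 7, where both ages were run, the peak was present in 3 of 3 Young Bleo and 0 of 3 Aged Sham samples, and Young Bleo 4, on lane 8 with the Young Sham samples, had none.

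Seen by comparison, the called age differences were all toward fewer aged samples with a peak. Between Aged Sham and Young Sham, 5 member regions were called with fewer samples and 0 with more, where 4.9% and 0.264% of all regions were called. They were Vwf +51.7 kb, Entpd1 +62.8 kb and Ptgis -40.2 kb (each Fisher's exact p = 0.00794), the Tfpi upstream promoter and Entpd1 +77.5 kb (each p = 0.0476 in the same exact test). The same 5 regions were called between all 9 aged and all 9 young samples, against 4.87% of all regions with fewer and 0.127% with more. There the Fisher's exact p was 0.000411 for Ptgis -40.2 kb, 0.00226 for Vwf +51.7 kb, 0.00337 for Entpd1 +77.5 kb and 0.0498 for the other two. These comparisons share samples and are not separate evidence. On lane 7, Vwf +51.7 kb had a peak in 3 of 3 Young Bleo and 0 of 3 Aged Sham samples, and Entpd1 +77.5 kb in 3 and 1. Entpd1 +62.8 kb and the Tfpi upstream promoter each had one there in 1 of 3 Young Bleo and 0 of 3 Aged Sham samples. All Young Sham samples were on lane 8, and Entpd1 +62.8 kb was also called with fewer samples in Young Bleo v Young Sham. In Aged Sham v Young Sham, the Tfpi upstream promoter stayed called in 3 and Entpd1 +77.5 kb in 4 of the 12 alternatives that kept these regions, whereas the other 3 regions stayed called in 11 or 12.

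The members called with fewer samples made up 8.93% of the 56 regions in both comparisons, higher than among all regions but resting on 5 regions. Aged Sham lists held 25793 to 32220 peaks and Young Sham lists 30073 to 38747, with overlap. With the 21050 strongest peaks kept in every list none of these regions remained as a consensus region, so that setting did not test them.

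Between Bleo and Sham samples of both ages together, the called member regions all had more Bleo samples with a peak. Between Young Bleo and Young Sham, 3 member regions were called with more samples (3.98% of all regions), Procr -8.8 kb, Entpd1 +42.8 kb and Entpd1 +79.4 kb, and 1 with fewer (1.96% of all), Entpd1 +62.8 kb. The exact p was 0.0476 for each Entpd1 region. Leaving out 1 sample reduced the 3 regions with more samples to 1 or 2 in every case. With the 21050 strongest peaks kept in every list none of the 4 had a value to compare, so that setting did not test them. Of the 12 alternatives that kept these regions, samples left out included, Entpd1 +42.8 kb and Entpd1 +79.4 kb each stayed called in 3, Entpd1 +62.8 kb in 2 and Procr -8.8 kb in 11. Here too the results without 1 sample follow from the counts, so the tallies largely restate the exact p. Aged Bleo and Young Sham differ in age as well as treatment. Between them 1 region was called with more samples (0.201% of all), Procr -8.8 kb, and 3 with fewer (3.01% of all), Entpd1 +62.8 kb, Entpd1 +77.5 kb and Ptgis -40.2 kb, with Fisher's exact p of 0.0476, 0.00794 and 0.00794. These 3 had a peak in 0, 1 and 0 of 4 Aged Sham samples already. Over both ages, Bleo v Sham gave 3 regions with more samples (2.17% of all), the same 3 as in young mice, and 0 with fewer (1.23% of all). Fisher's exact p was 0.0498 for each of the Entpd1 regions. No region of the 47338 passed Benjamini-Hochberg adjustment in any of the 6 comparisons, and the smallest adjusted p of a member was 0.229, for Ptgis -40.2 kb between aged and young samples (Fisher's exact test, n = 9 each). With 4 or 5 samples per group the exact p could not fall below 0.00794. Adjustment over this many regions therefore left little room to pass in those comparisons.

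**Figure D3:**
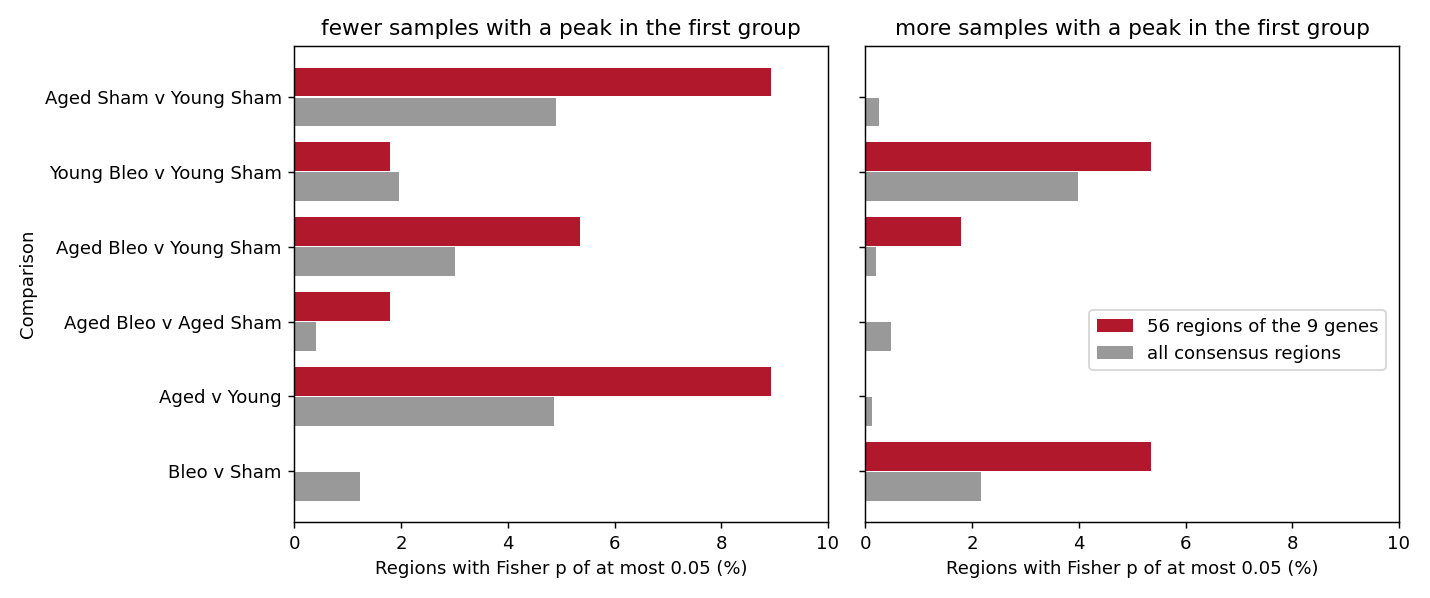
Percentage of regions called by Fisher's exact test (p of at most 0.05, horizontal axes) with fewer (left) or more (right) samples holding a peak in the first-named group, for the 56 member regions (red) and all 47338 regions (grey). Calls with fewer samples reached 8.93% of members in Aged Sham v Young Sham and Aged v Young, and calls with more samples reached 5.36% in Young Bleo v Young Sham and Bleo v Sham.

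In relative strength, the Vwf intron region was the only one of the 11 members with a peak in all samples to pass adjustment in any comparison. With limma, 0 of 11 passed in Aged Sham v Young Sham, Young Bleo v Young Sham, Aged Bleo v Aged Sham and Aged v Young, where 1.21%, 2.75%, 0.344% and 3.91% of all testable regions were called in either direction. At an unadjusted p under 0.05, 0, 3, 1 and 1 of them passed in these comparisons, where 15.9%, 17.4%, 15.9% and 22.7% of all testable regions did. In Aged Bleo v Young Sham 4 of the 11 did, against 27.6% of all testable regions, and in Bleo v Sham 4, against 22.6%. The median difference over the 11 was -2.58 points for Bleo v Sham, against 0.0508 over all testable regions, and 0.679 for Aged v Young, against 0.393. No member passed in the test of whether the Bleo effect differed between ages, where 1 of the 17432 regions did.

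**Figure D4:**
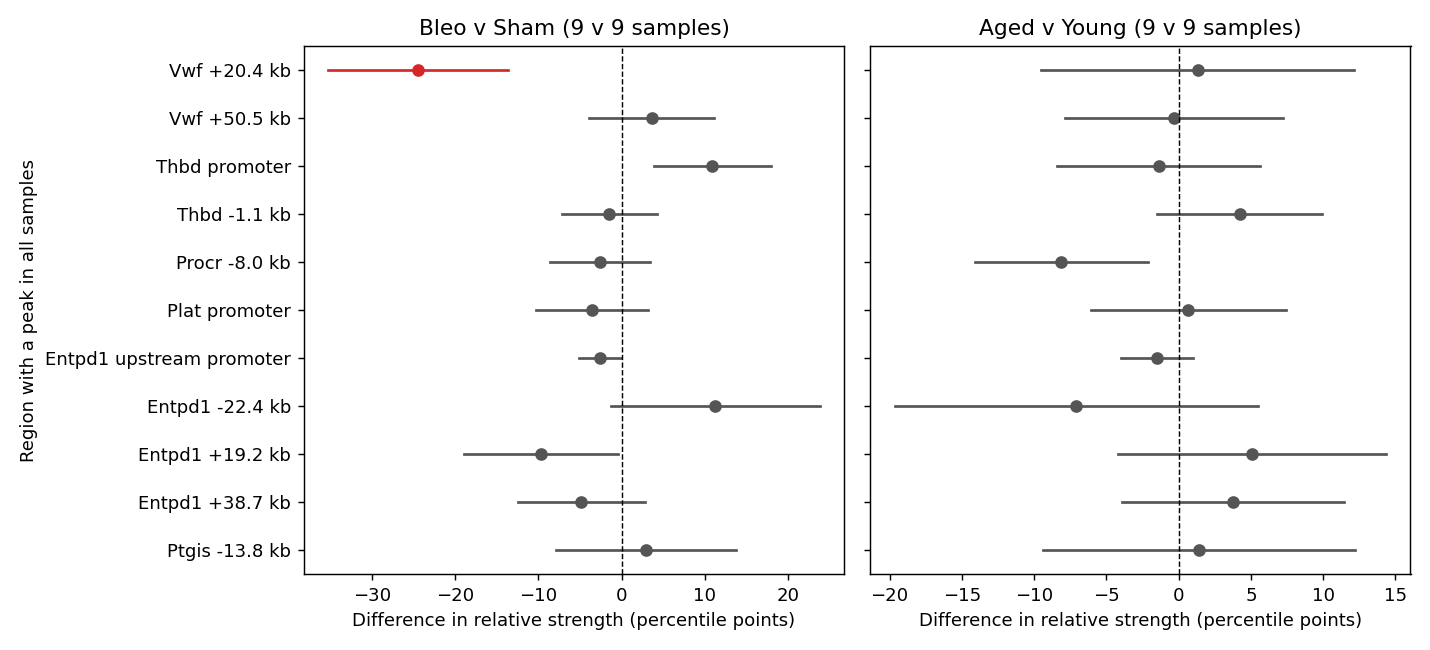
Difference in relative strength (percentile points, horizontal axes) of the 11 member regions with a peak in all samples, for Bleo v Sham (left) and Aged v Young (right), 9 against 9 samples; points are limma estimates, lines 95% intervals, and red marks an adjusted p below 0.05. The Vwf intron region stands at -24.4 for Bleo v Sham, and the intervals that also leave out 0 are those of the Thbd promoter, Entpd1 +19.2 kb and the Entpd1 upstream promoter for Bleo v Sham and Procr -8.0 kb for Aged v Young, none of them past adjustment.

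Other genes of haemostasis, from a list of 49 genes of clotting, anticoagulation, fibrinolysis and platelet control, had 130 regions at 36 genes, 31 of them with a peak in all samples. Between aged and young samples 11 were called with fewer and 1 with more samples (8.46% and 0.77% of the 130, against 4.87% and 0.127% of all regions), and between Bleo and Sham 1 with fewer (0.77%, against 1.23% of all) and 0 with more (against 2.17%). Between Aged Sham and Young Sham 6 were called with fewer (4.62%, against 4.9% of all) and 2 with more (1.54%, against 0.264%). Between Young Bleo and Young Sham the counts were 2 (1.54%, against 1.96%) and 4 (3.08%, against 3.98%), between Aged Bleo and Young Sham 6 (4.62%, against 3.01%) and 0 (against 0.201%), and between Aged Bleo and Aged Sham 2 (1.54%, against 0.41%) and 1 (0.77%, against 0.475%). The 1 region called with fewer samples in Bleo v Sham lay 12.7 kb upstream of Mmrn1, the gene of the factor V binding protein multimerin 1. It had a peak in 5 of 5 Young Sham, 0 of 4 Young Bleo, 4 of 4 Aged Sham and 1 of 5 Aged Bleo samples (Fisher's exact p = 0.000411). By strength, 3 of the 31 testable regions were higher and 1 lower in Bleo than in Sham samples, where 2.84% and 3.33% of all testable regions were.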

How the data were processed

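Omni-ATAC-seq peak lists from sorted lung ECs of 18 mice were analysed, 1 list per mouse, grouped by the sample labels. Per the methods, the authors aligned reads to mm10 with BWA, removed duplicates and called peaks with MACS2 (FDR 1%). The deposited fold enrichment is a ratio, the summit's fragment pileup over the background MACS2 estimated around it. The -log10 p and -log10 q columns deposited by the authors come from the same MACS2 run. The score deposited by the authors is a rescaling of these and played no part here. The values carry no scaling from one library to another, read totals were not used here, and the authors' differential analysis on read counts was not repeated. Ages, dose and day came from the labels and methods, and the lane from the file names.

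Peaks of the autosomes, X and Y that overlapped by at least 1 bp were merged (19 peaks elsewhere were left out), and a region needed peaks from 2 or more samples. The midpoint of a region was placed on 45756 RefSeq transcripts for annotation. Presence of a peak was compared by two-sided Fisher's exact tests over all 47338 regions (p of at most 0.05 called, Benjamini-Hochberg adjustment beside). The smallest possible p was 0.00794 for 4 or 5 against 5 samples and 4.11e-05 for 9 against 9. Relative strength was compared with limma 3.58.1 in R 4.3.3 over 17432 regions, with a mean per group, at an adjusted p below 0.05. Each list is 1 mouse, so the limma p-values rest on the spread between mice within groups. Fisher's test uses only the numbers of mice with and without a peak, and no estimate of spread. Differences between groups also hold differences between lanes, except where lane was a term. Solving fold enrichment and -log10 p for fragments gave whole numbers, within 0.002 in -log10 p, for 100.0% of 20000 sampled peaks with a -log10 p up to 250. Both tests were also tried on simulated data, and no result given here rests on that.

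The genes, the list of other haemostasis genes, the marker lists and the motifs were chosen with earlier results of these data known. Described regions are the promoters, those called in any comparison, and for each gene the region with the highest median strength outside promoters, and of the other haemostasis genes those with a called region. Vwf -23.3, -17.8 and +50.5 kb and Entpd1 -22.4 kb were added after their values were seen. The alternatives used a -log10 q cutoff of 5, the same number of peaks per list (21050), peaks covering at least 50% of a region, regions shared by 3 or more samples, log2 fold enrichment after quantile normalisation, -log10 p as strength, a replicate block, lane as a term, and each sample left out in turn. Some named genes and sequences are not reported here.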

Additional observations from a re-analysis of the deposited data

Results flagged for a closer look

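In groups of 4 or 5 samples, 55 sets of relative strengths were examined for a sample that stood far from the others, a rule that picks about 1 in 20 sets by chance, and 3 sets met it. At the Thbd promoter, Young Sham 3 was at 39.8, against 18.8 to 24.1 in the other Young Sham samples. At the Procr promoter, Young Sham 3 was again the highest, at 11.3, against 2.51 to 3.93 in the others. At the Entpd1 upstream promoter, Aged Bleo 3 was the lowest, at 90.4, against 94.6 to 96.3 in the other Aged Bleo samples.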

How the results depend on the processing

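For presence, the 22 calls of a region in a comparison had 340 values under the alternatives that kept their region, of which 272 stayed past the threshold, 68 did not and 0 changed direction. Most of these values came from leaving out 1 sample, where the result follows from the counts. The total is therefore no measure of how firmly the calls stand. Equal list lengths are not among them, since none of the 22 had a value to compare under that setting. Requiring 3 samples left 49 regions and the same counts, because this setting cannot change presence in a called region. With a -log10 q of at least 5 (53 regions), the counts with fewer samples were 3 in Aged Sham v Young Sham, 0 in Young Bleo v Young Sham, 1 in Aged Bleo v Young Sham, 0 in Aged Bleo v Aged Sham and 3 in Aged v Young, and with more samples 1 in Young Bleo v Young Sham, 1 in Aged Bleo v Aged Sham and 1 in Bleo v Sham. With 21050 peaks per list (27 regions), 0 regions had fewer samples in any comparison, and with more samples there were 1 in Young Bleo v Young Sham, 0 in Aged Bleo v Young Sham and 1 in Bleo v Sham, none of them called in the main comparison. With 50% cover, Young Bleo v Young Sham had 0 with fewer samples, Aged Bleo v Young Sham 0 with more and Aged Bleo v Aged Sham 0 with fewer. The cause was not tested, beyond the fewer regions in shorter lists.

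Leaving out 1 sample gave, for fewer samples, 3 to 4 regions in Aged Sham v Young Sham, 0 to 1 in Young Bleo v Young Sham, 3 to 6 in Aged Bleo v Young Sham (6 without Aged Bleo 2), 0 to 1 in Aged Bleo v Aged Sham (1 only without Aged Sham 4) and 5 to 7 in Aged v Young. For more samples it gave 1 to 2 in Young Bleo v Young Sham, 1 to 2 in Aged Bleo v Young Sham and 3 to 5 in Bleo v Sham (5 without Aged Bleo 5).

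For strength, the Vwf intron region passed in Bleo v Sham under 21 of 22 alternatives on the percentile scale (-26.5 to -15.7 points, adjusted p 0.00898 to 0.658, the exception being lane as a term) and in Aged Bleo v Young Sham under 6 of 14, with adjusted p 0.0297 to 1.0 and a difference of -0.0191 with lane as a term. Counts of members whose strength differed were 0 in Aged Bleo v Young Sham and 0 in Bleo v Sham with lane as a term, 0 in Aged Bleo v Young Sham with the replicate block, and 1 in Young Bleo v Young Sham and 3 in Bleo v Sham with -log10 p. Leaving out 1 sample gave 0 to 2 in Aged Bleo v Young Sham, 1 to 2 in Bleo v Sham and 0 to 1 in Young Bleo v Young Sham. Aged Bleo v Young Sham lost the Vwf call without Young Sham 1, 2 or 4 or Aged Bleo 1 or 2.

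Same-numbered samples did not deviate together (25 pairs, r -0.193 to 0.335, 5 over 0.1, 4 of 18 samples closest to their own number), so the replicate block was no pairing by design.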

Other observations

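Other haemostasis genes had called regions in several comparisons. A region 56.9 kb downstream of the start site of Tfpi2, a serine protease inhibitor related to TFPI, was called with fewer aged samples. It had a peak in 5 of 5 Young Sham, 3 of 4 Young Bleo and none of 9 aged samples (Aged v Young, Fisher's exact p = 0.000411), a pattern of counts that equals that of Ptgis -40.2 kb. These peaks were weak, at 0.597 to 3.11 in Young Sham and 0.493 to 2.39 in Young Bleo samples. The regions S100a10 +38.6 kb and Tbxas1 -7.6 kb (each p = 0.00226 in the same exact test), Plaur +11.6 kb, Pros1 +251.0 kb and +240.2 kb, Plg +37.8 kb, Plau +36.8 kb, Ptgir +7.5 kb, Anxa2 +1.9 kb and F12 +5.5 kb were also called with fewer aged samples. Hs3st1 -101.4 kb, near a heparan sulfate sulfotransferase gene, was the 1 region called with more, with a peak in 1 of 5 Young Sham, 1 of 4 Young Bleo, 4 of 4 Aged Sham and 4 of 5 Aged Bleo samples (Fisher's exact p = 0.0152).

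In Young Bleo v Young Sham, 4 of the 130 regions (3.08%) were called with more samples, against 3.98% of all regions, and 2 of them were promoters. That of F2rl1, a protease-activated receptor, had a peak in 0 of 5 Young Sham, 3 of 4 Young Bleo, 1 of 4 Aged Sham and 2 of 5 Aged Bleo samples, and that of Mmrn1 in 0, 3, 0 and 1 (each Fisher's exact p = 0.0476 in young mice). Pros1 +7.4 kb (1, 4, 1 and 0 samples) was called with more samples in the same comparison, while the F2rl2 promoter (5, 1, 2 and 1) was called with fewer. Ptgs1 +4.6 kb (1, 0, 3 and 0) was called with fewer and Lman1 -38.8 kb (4, 4, 1 and 5) with more samples in Aged Bleo v Aged Sham.

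By relative strength, S100a10 +42.3 kb, near a plasminogen-binding annexin partner, was higher by 26.4 points in Bleo v Sham (limma adjusted p = 0.00238), with 7.25 to 30.2 in Young Sham and 50.3 to 75.8 in Young Bleo samples. The aged groups overlapped, at 32.5 to 55.9 in Aged Sham and 45.1 to 62.1 in Aged Bleo, and Aged Sham was itself higher than Young Sham by 28.7 points (limma adjusted p = 0.0272). Tbxas1 +140.6 kb, in an intron of thromboxane synthase, gave -11.0 (limma adjusted p = 0.0315) and Proc -8.1 kb 18.9 (limma adjusted p = 0.0406) in Bleo v Sham. The Anxa2 promoter was higher in aged than in young samples by 11.8 points (limma adjusted p = 0.0141, where 2.06% of all testable regions were higher). An intronic region listed for both Selp and F5 (Selp +20.3 kb, F5 -16.2 kb), which cannot be assigned to 1 of the genes, was higher in Aged Sham than in Young Sham by 25.1 (limma adjusted p = 0.0461, where 0.62% of all were higher). These regions were not examined with lane as a term one by one, and no region of the whole set passed in that fit.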
